A study of Mus musculus with 6 samples.

Results

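The 5 genes described here make or carry lactate: Ldha and Ldhb, the subunits of lactate dehydrogenase, Slc16a1 and Slc16a3, which encode the monocarboxylate transporters MCT1 and MCT4, and Bsg, which encodes basigin, the chaperone of both transporters. They were picked by name from a table of 55401 gene entries, with their values in it already known, so their differences between treatments are given as a description without a test. All 5 were in the table. CD4+ T cells were taken from spleens of naive wild-type C57BL/6 mice, labelled with the division dye CFSE and cultured for 48 h with anti-CD3 and anti-CD28 antibodies plus IL-2 (200 U). Added were 5 mM itaconate, a dicarboxylate made by activated macrophages, in one group and 5 mM NaCl in the control group, with 3 RNA-seq libraries each. No resting cells and no lactate, enzyme or protein measurements were part of these files. The control columns carry the code NAC, taken here to mean NaCl, the only control named in the labels.

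Lactate dehydrogenase is a tetramer that converts pyruvate and NADH to lactate and NAD+ and back. The A subunit is the form of glycolytic tissue and favours lactate formation, while the B subunit prevails in oxidative tissue such as heart. Lactate crosses the plasma membrane with a proton through MCT1 or MCT4, of which MCT4 serves export from glycolytic cells. Both need basigin, a glycoprotein of the immunoglobulin superfamily also known as CD147, to reach the surface. Activated T cells turn to aerobic glycolysis and release lactate, and Ldha, Slc16a3 and Slc2a1 are textbook targets of the hypoxia-inducible factor HIF-1.

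The annotation placed the protein-coding genes on GRCm38 as follows. Ldha lies on chromosome 7, 46841475 to 46855627, plus strand. Ldhb lies on chromosome 6, 142490249 to 142507957, minus strand. Slc16a1 lies on chromosome 3, 104638668 to 104658462, Slc16a3 on chromosome 11, 120948480 to 120960868, and Bsg on chromosome 10, 79704491 to 79711969, all on the plus strand. The 250 bases before the transcription start, from RefSeq on GRCm38.p6, are shown for 2 pairs of paralogs, so that they can be compared. These are Ldha and Slc16a3, both lower with itaconate, and their paralogs Ldhb and Slc16a1. Of the 5 genes 4 matched the promoter table, and Bsg, which was also lower, did not. The sequences are written 5′ to 3′ on the strand of the gene, and capitals mark ACGTG on either strand. For Ldha the window at the upstream start of 2 is shown. The Ldha and Slc16a3 windows lie inside the gene spans given above, since those spans begin at starts further upstream. In the Slc16a3 window 14 bases belong to an annotated exon of the gene.
Ldha, chr7:46845554-46845803, plus strand: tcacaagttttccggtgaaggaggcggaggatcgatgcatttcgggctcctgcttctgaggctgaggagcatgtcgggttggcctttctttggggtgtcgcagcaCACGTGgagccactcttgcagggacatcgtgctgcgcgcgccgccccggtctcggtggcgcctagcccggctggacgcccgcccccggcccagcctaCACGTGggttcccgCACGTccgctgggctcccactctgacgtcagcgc
Slc16a3, chr11:120948817-120949066, plus strand: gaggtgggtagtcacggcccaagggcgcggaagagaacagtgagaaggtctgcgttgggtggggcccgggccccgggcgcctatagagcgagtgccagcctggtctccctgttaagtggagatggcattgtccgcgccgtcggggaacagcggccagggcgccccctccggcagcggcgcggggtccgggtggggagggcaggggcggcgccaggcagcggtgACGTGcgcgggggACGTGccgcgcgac
Slc16a1, chr3:104638414-104638663, plus strand: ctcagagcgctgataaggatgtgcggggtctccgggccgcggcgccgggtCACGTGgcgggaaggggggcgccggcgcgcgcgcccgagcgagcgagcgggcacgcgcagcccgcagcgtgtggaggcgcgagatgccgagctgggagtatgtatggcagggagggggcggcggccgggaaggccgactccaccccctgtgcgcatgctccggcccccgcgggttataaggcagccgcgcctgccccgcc
Ldhb, chr6:142507958-142508207, minus strand: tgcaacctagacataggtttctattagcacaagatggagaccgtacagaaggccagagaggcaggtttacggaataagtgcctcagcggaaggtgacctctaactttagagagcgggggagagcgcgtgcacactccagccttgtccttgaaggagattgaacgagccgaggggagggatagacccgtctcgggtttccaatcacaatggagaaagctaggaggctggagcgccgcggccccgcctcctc

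ACGTG and GCGTG are the usual forms of the core of a hypoxia response element. CACGTG, the E-box that MYC family proteins bind, contains ACGTG on both strands. The Ldha window held ACGTG at 3 places. At positions −145 to −140 and −48 to −43, counted back from the start, it lay within CACGTG, and at −34 to −30 it stood on the minus strand. The Slc16a3 window held it at 2 places, −27 to −23 and −14 to −10, neither within CACGTG. The Slc16a1 window held 1 place, at −200 to −195 within CACGTG, and 2 copies of GCGTG, and the Ldhb window held no ACGTG and 1 copy of GCGTG at −126 to −122. The second Ldha window held 1 copy of GCGTG and no ACGTG. Among the 32851 windows of 250 bases in the whole promoter table, 16.6% held ACGTG, 28.2% GCGTG and 6.02% CACGTG at least once. These matches describe letters, and no binding was measured.

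The libraries held 20074299 to 24144999 estimated reads. The values are normalized estimated counts, that is RSEM's read estimates divided by a factor per library, so a gene's value depends on the rest of its library. Each of the 5 genes rested on at least 412 estimated reads in every library, the fewest being those of Ldhb. Whether each library had its own mouse or culture is not stated in the labels, so p-values reflect variation among the libraries alone, and that may be technical. In bulk RNA, fewer cells with a transcript and less of it per cell cannot be told apart. Summed values of 8 CD4 T cell markers ran from 55142 to 61502 in NaCl and from 60665 to 63877 with itaconate, with Cd4 at 8559 to 10191 and 13094 to 13962. Of the 8, 3 rose (Cd4, Cd3e and Cd28) and 2 fell, Cd247 (log2 change −0.60, adjusted p = 2.19e-04 in limma) and Cd3g (−0.44, adjusted p = 0.00217), all named after their values were seen. Of the 6 erythroid markers 3 were at 0 in all libraries, Hba-a1 among them, Alas2 reached 1.87, and the sum was at most 3.74. Of the 10 myeloid markers 7 had means below 10, with Lyz2 at most 2.04 and Csf1r at most 6.53. The myeloid sum was 37.7 to 74.2 in NaCl and 67.3 to 136 with itaconate, and its 1 member that rose was Itgam, named after its value was seen. B cell markers summed to 1204 to 1467 in NaCl and 1889 to 1996 with itaconate, most of it Ighm, while Cd79a (11.1 to 49.3) was low in every library. The 2 CD8 markers summed to 363 to 408 in NaCl and 308 to 365 with itaconate, with Cd8a at 28.1 to 68.3, and the 4 NK markers to 95.4 to 130 and 202 to 236, nearly all of it Eomes, a gene that T cells also express, with Ncr1 at most 2.04. The part of these markers in the results was not tested.

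Ldha, Slc16a3 and Bsg were lower with itaconate in every library, Ldhb was higher in every library, and the Slc16a1 groups overlapped. Thus 3 of the 5 genes had all itaconate libraries below all controls, where 24.2% of the 13180 tested genes did, and 1 had them all above, where 24.2% did. These genes were chosen with this contrast known, and the shares are given for scale only. Genes counted as tested had a 6-library mean of 10 or more.

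**Figure D1:**
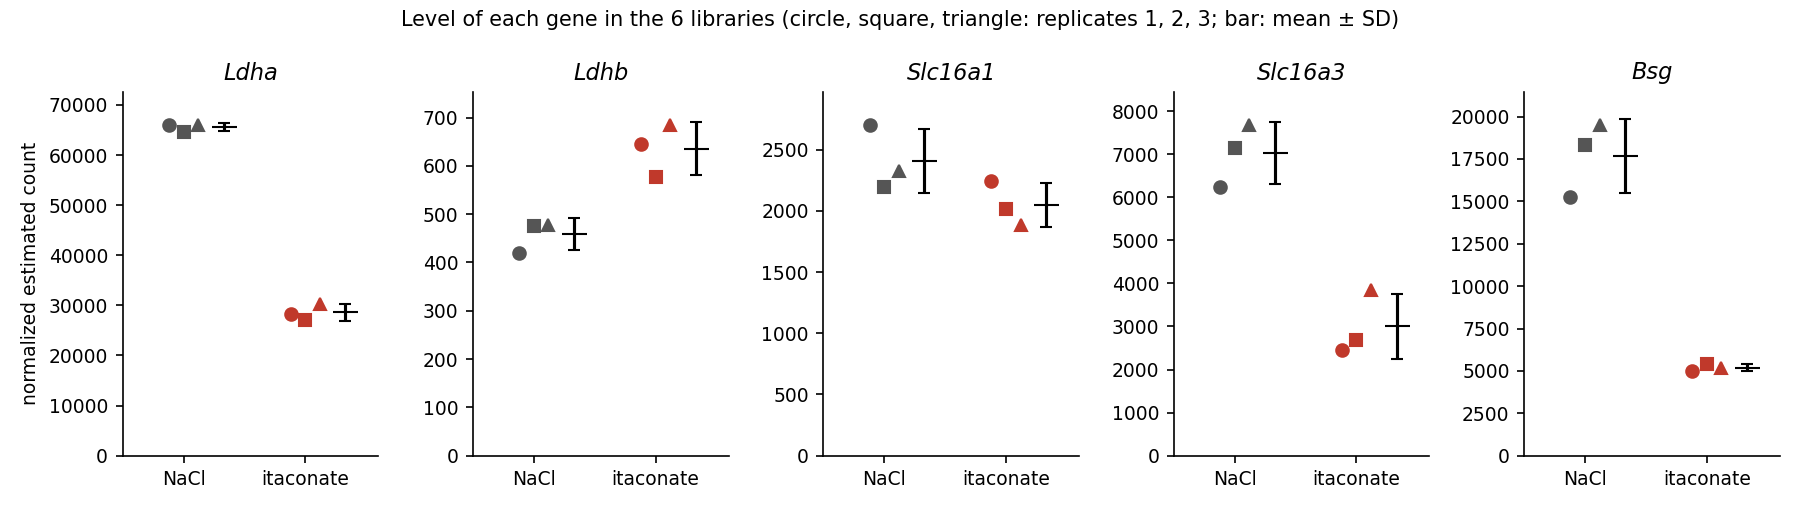
Normalized estimated counts (y axis, from 0, a separate scale for each gene) of the 5 genes in 3 NaCl and 3 itaconate libraries, with the mean ± SD (bar). Ldha, Slc16a3 and Bsg are lower with itaconate without overlap, Ldhb is higher without overlap, and Slc16a1 overlaps.

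Ldha had normalized estimated counts of 65966, 64661 and 65981 in NaCl replicates 1, 2 and 3 and of 28372, 27094 and 30345 in the itaconate replicates. The controls were within a narrow band, and each itaconate library stood far below it. In the controls Ldha took 0.302% of all values and ranked 18 among all entries in each library. With itaconate it took 0.134% and ranked 71 to 88. The difference of the means of log2(value + 1) was −1.20, with SDs of 0.017 in NaCl and 0.082 with itaconate (n = 3 each), so itaconate libraries held 43.6% of the control level. Of the 31-base sequences of its full-length coding transcripts, 31.9% also occur in 27 other annotated genes, among which RSEM can divide reads. The 25 of these in the table summed to at most 43.1, even taking the highest library for each, so they held little of what could have been Ldha signal.

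Ldhb was at 420.2, 476 and 478 in NaCl and at 645, 578 and 685 with itaconate. The lowest itaconate library lay above the highest control, by 0.27 on the log2 scale. The means were 458 ± 33.0 and 636 ± 54.0 (SD, n = 3), a log2 difference of 0.47. The GENCODE pseudogene Gm5514 shares 41.4% of the Ldhb 31-base sequences. RefSeq gives that name as a synonym of Ldhb-ps, and the table's entry Ldhb-ps was at most at 3.08 in any library.

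Because the subunits went in opposite directions, the balance between them shifted by more than either gene alone. Divided by the median length of its full-length coding transcripts (1588 bases for Ldha, 1304 for Ldhb), Ldha exceeded Ldhb 129-fold, 112-fold and 113-fold in the controls. With itaconate it exceeded it 36.1-fold, 38.5-fold and 36.4-fold. The ratio of the means of these values was 3.19, from 118 ± 9.59 to 37.0 ± 1.31 (SD, n = 3), and a single scaling factor per library cancels in it. Ldhb nevertheless made up only 0.845% ± 0.065 of lactate dehydrogenase transcript per kb in NaCl and 2.63% ± 0.089 with itaconate. The summed level per kb of both subunits was therefore set by Ldha and went from 41621 ± 466 to 18500.1 ± 1071. The length of Ldha is uncertain, with full-length coding transcripts of 685 to 1815 bases. Its mean level per kb in NaCl was 95673 with the shortest and 36108 with the longest, against 351 for Ldhb. The excess over Ldhb and the share of Ldhb depend on the length taken, whereas length cancels in the 3.19.

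The transporter genes did not share a pattern. Slc16a3 had values of 6246, 7141 and 7676 in NaCl and of 2456, 2692 and 3855 with itaconate. All itaconate libraries were below the controls, but replicate 3 stood above the other two. The means were 7021 ± 722 and 3001 ± 749 (SD, n = 3), a log2 difference of −1.25, which became −1.44 without itaconate replicate 3. Slc16a1 had values of 2700.5, 2194 and 2327 in NaCl and of 2242, 2015 and 1881 with itaconate. The highest itaconate library exceeded the lowest control. Its means were 2407 ± 263 and 2046 ± 182, a log2 difference of −0.23 against a pooled within-group SD of 0.14, and it became −0.15 without NaCl replicate 1. Neither transporter shared a 31-base sequence with another annotated gene, and no annotated exon of another gene shared bases with the exons of any of the 5.

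Per kb of transcript, Slc16a3 exceeded Slc16a1 by 4.29, 6.04 and 6.12 times in the NaCl replicates and by 2.03, 2.48 and 3.80 times with itaconate. The groups did not overlap, and itaconate replicate 3 came nearest to the controls. The share of Slc16a1 in the level of both transporters per kb was 15.7% ± 2.76 in NaCl and 27.5% ± 6.17 with itaconate (SD, n = 3). The length of Slc16a3 is uncertain, with full-length coding transcripts of 2272 to 4335 bases and a median of 2386. With the longest of them the mean ratio was 3.02 ± 0.57 in NaCl and 1.52 ± 0.51 with itaconate, and the size of the shift stayed the same because length cancels.

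Bsg had the lowest log2 difference of the 5 genes. Its values were 15278, 18296 and 19498 in NaCl and 4978, 5415 and 5164 with itaconate. The controls varied more than the itaconate libraries, and each itaconate library stood far below each control. The means were 17691 ± 2174 and 5185 ± 219 (SD, n = 3), a log2 difference of −1.76, so that 29.3% of the control level was left with itaconate. None of its 31-base sequences occurred in another gene.

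Set against its clients, Bsg per kb was 3.75, 4.16 and 4.13 times the sum of Slc16a1 and Slc16a3 in the NaCl libraries. With itaconate it was 2.57, 2.71 and 2.01 times that sum. The chaperone transcript was thus lower relative to the transporters, and its level stayed above theirs in each library. The summed transporter level per kb went from 3487 ± 258 to 1720.0 ± 279 (SD, n = 3). Ldha and Slc16a3 kept nearly the same ratio per kb, 14.1 ± 1.54 in NaCl and 14.8 ± 2.78 with itaconate, and their groups overlapped in it. The ratio of Ldha to Bsg went from 2.97 ± 0.40 to 4.39 ± 0.37.

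**Figure D2:**
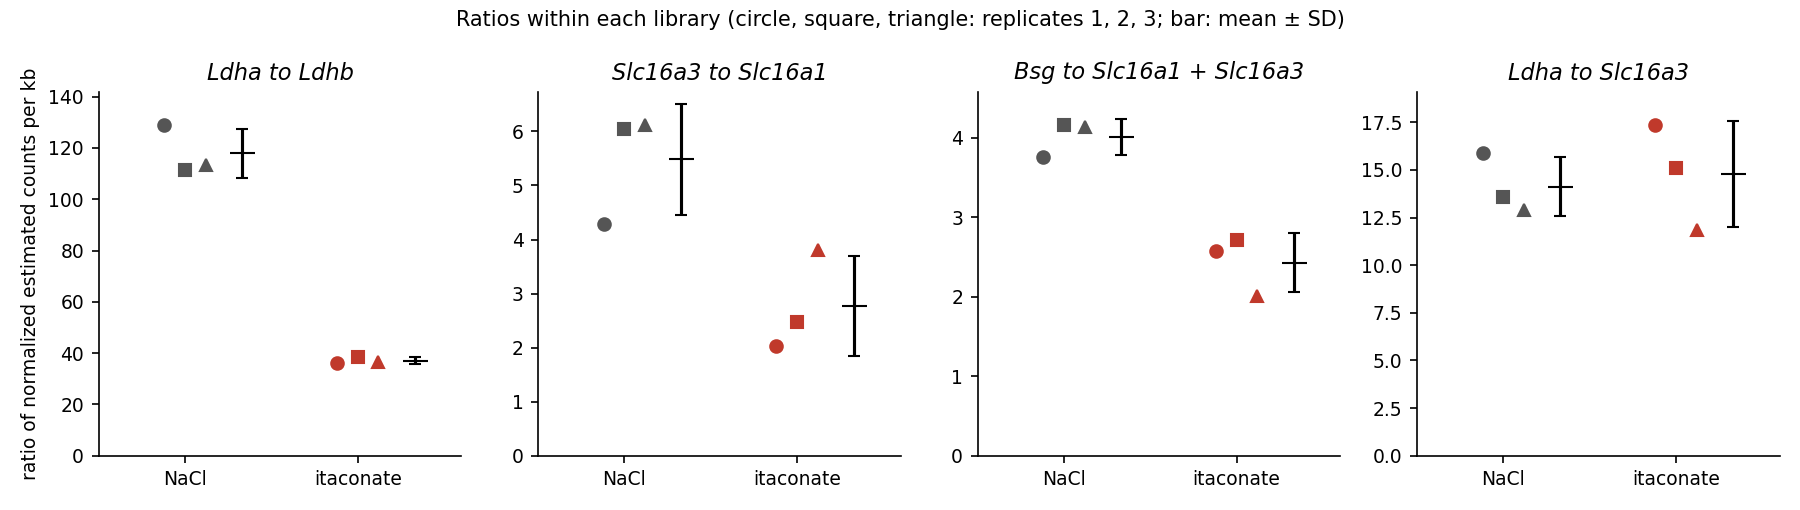
Ratios of normalized estimated counts per kb of transcript (y axes, from 0) within each of the 6 libraries, with the mean ± SD (bar). The ratios of Ldha to Ldhb, of Slc16a3 to Slc16a1 and of Bsg to both transporters are lower with itaconate without overlap, and that of Ldha to Slc16a3 overlaps.

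In level per kb, the order in the controls was Ldha (41270 ± 477), Bsg (14029 ± 1724), Slc16a3 (2943 ± 303), Slc16a1 (544 ± 59.3) and Ldhb (351 ± 25.3; SD, n = 3 each), and no 2 neighbours overlapped. With itaconate the first 3 kept their places, with Ldha at 18012 ± 1031, Bsg at 4112 ± 174 and Slc16a3 at 1258 ± 314. Ldhb (488 ± 41.4) and Slc16a1 (462 ± 41.2) were then within their spread of each other. Using the shortest or the longest full-length coding transcript left the orders the same. Using all annotated exon bases of a gene put Slc16a1 above Ldhb in both groups.

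Among the 13180 tested genes, 2.45% had a lower log2 difference than Bsg, 5.04% a lower one than Slc16a3 and 5.58% a lower one than Ldha. Slc16a1 stood in the body of the distribution, with 31.5% of genes below it, and 17.6% of genes had a higher difference than Ldhb. The median over all tested genes was −0.00088.

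**Figure D3:**
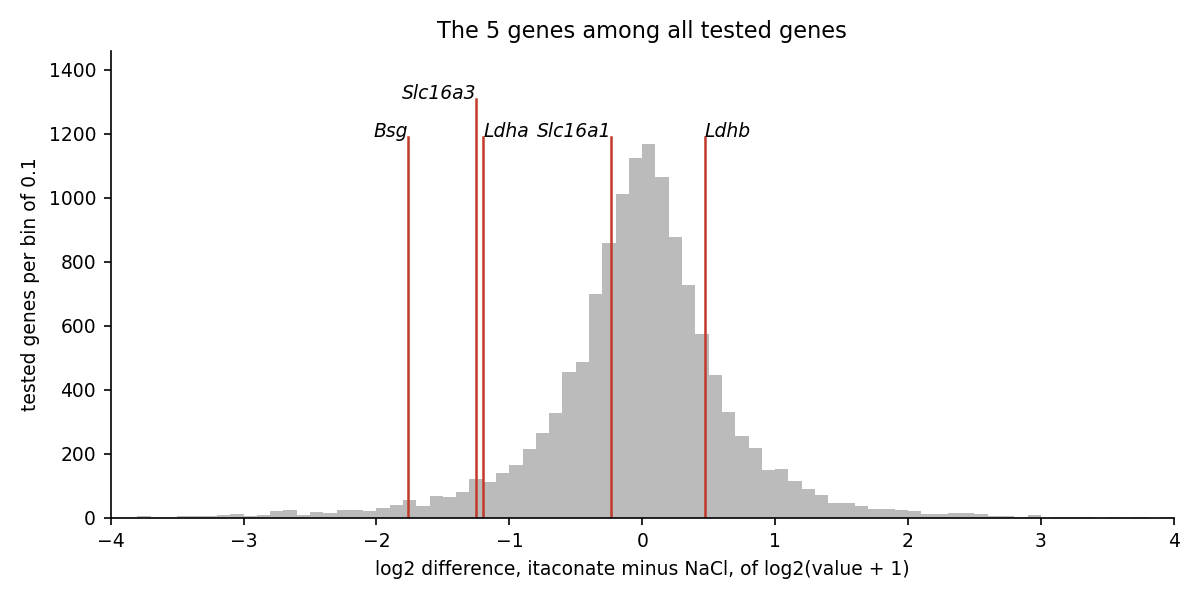
Number of tested genes (y axis) in bins of 0.1 of the log2 difference, itaconate minus NaCl (x axis, shown from −4 to 4), with the 5 genes as vertical lines. Bsg at −1.76, Slc16a3 at −1.25 and Ldha at −1.20 lie in the lower tail, Slc16a1 at −0.23 near the centre and Ldhb at 0.47 above it.

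Within a group, replicates of the 5 genes deviated unevenly. Itaconate replicate 3 had the largest deviation, 0.39 on the log2 scale for Slc16a3, while Bsg deviated there by −0.0052. In NaCl replicate 1 Slc16a1 stood 0.17 above its group mean, whereas Slc16a3 and Bsg stood 0.16 and 0.20 below theirs (deviations of −0.16 and −0.20). Across the 6 libraries, Slc16a1 and Slc16a3 deviated with opposite signs in all but 1 library (Pearson's r of the deviations −0.77, n = 6 libraries), as did Slc16a1 and Bsg (r = −0.74). Ldha and Slc16a3 deviated with r = 0.72. These coefficients describe 6 points that share their libraries and group means, and replicates have no order.

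**Figure D4:**
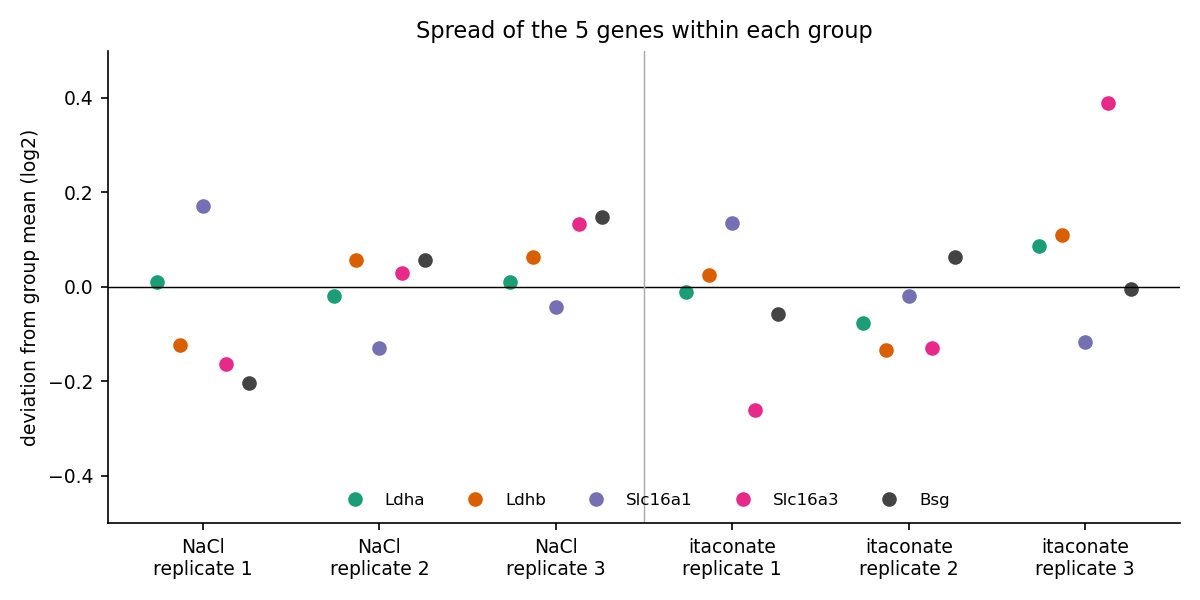
Deviation of each gene's log2(value + 1) from the mean of its own group (y axis) in the 6 libraries (x axis). Slc16a3 in itaconate replicate 3 is highest at 0.39, and Slc16a1 lies on the other side of 0 from Slc16a3 in 5 of 6 libraries.

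The genes with the profiles most like each of the 5 were sought among 6675 other tested genes with a mean of at least 500, as the root mean square distance between log2 values centred over the 6 libraries. For Ldha these were Dram2 (distance 0.041), Kdm6b (0.065) and Ddit3 (0.067). For Slc16a3 they were Slc37a4 (0.068), the glycolytic gene Pfkl (0.081) and Slamf1 (0.085), and for Bsg Fam162a (0.086), Bnip3l (0.12) and Clcn5 (0.12). For Slc16a1, which moved little, they were Dnajc11 (0.028), Aldh18a1 (0.028) and Lamtor3 (0.032), and for Ldhb they were Irf8 (0.050), Il17ra (0.054) and Fbxo34 (0.057). The distances are over 6 libraries of a single comparison and are a description.

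Other genes around lactate were tested in 8 lists of 100 genes, of which 83 were measured well enough. In limma across all genes with Benjamini-Hochberg adjustment at 0.05, 14 of the 83 rose and 35 fell with itaconate. Over all tested genes 36.0% passed, 18.2% higher and 17.8% lower. All folds and adjusted p-values that follow are from that fit, on the log2(value + 1) scale with SE and n = 3 per group.

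Relatives of the lactate dehydrogenases were few. Ldhc, the testis subunit, was at 0 in all libraries, and Ldhal6b had a mean below 10. Of the 2 tested, 1 rose and 0 fell. Uevld, which encodes a protein with a lactate dehydrogenase domain of unclear activity, rose from 304 ± 39.2 to 645 ± 135 (log2 change 1.07 ± 0.17 SE, adjusted p = 4.52e-04). Ldhd, the mitochondrial D-lactate dehydrogenase, was at 129 ± 23.8 and 137 ± 33.9 (adjusted p = 0.843).

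Among the other carriers of the family and lactate's receptor, 5 of 15 were tested, 1 rose and 1 fell (median log2 difference 0.37, over all tested genes −0.00088). The remaining transporters of lactate were near absent: Slc16a7, which encodes MCT2, was at most at 11.3, Slc16a8, which encodes MCT3, at most at 16.4, and the sodium-coupled Slc5a8 and Slc5a12 were at 0, so that Slc16a1 and Slc16a3 made up nearly all of the lactate carrier transcript. These 4 were named after their values were seen. Slc16a10, which encodes an aromatic amino acid transporter, rose from 947, 763 and 733 in NaCl to 1588, 1524 and 1199 (log2 change 0.82 ± 0.13 SE, adjusted p = 5.42e-04). Slc16a6 went from 803 ± 93.7 to 609 ± 33.0 and fell (−0.39 ± 0.12, adjusted p = 0.0218). That call was lost when itaconate replicate 1 (adjusted p = 0.0524) or NaCl replicate 2 (0.102) was left out, within a range of 0.00824 to 0.102 over all settings. Slc16a13 was at 58.3 ± 13.6 and 39.1 ± 12.8 (adjusted p = 0.214).

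Of 6 relatives and partners of basigin, 0 rose and 2 fell (median log2 difference −0.23). Embigin (Emb), the other chaperone of monocarboxylate transporters, named after its value was seen, had 4374, 4814 and 4398 in NaCl and 4624, 5029 and 5543 with itaconate. These groups overlapped, and Emb did not pass (0.16 ± 0.090, adjusted p = 0.192). Nptn, a basigin paralog, was at 1380 ± 176 and 1134 ± 43.5 (−0.27 ± 0.11, adjusted p = 0.0698). It passed without NaCl replicate 3 (0.0266, range over all settings 0.0266 to 0.245). The genes that fell were Slc7a5 (−0.97 ± 0.11, adjusted p = 5.35e-05) and Slc3a2 (−0.57 ± 0.097, adjusted p = 6.56e-04), the chains of the CD98 amino acid transporter, with which basigin associates.

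Upstream of lactate, 16 of 18 tested genes from glucose uptake to pyruvate fell, and 2 rose (median log2 difference −0.95). The smallest p-values belonged to the glucose transporter gene Slc2a3, hexokinase 2 (Hk2) and the enolase gene Eno1, which went from 84319.6 ± 6146 to 34636 ± 3249 (−1.29 ± 0.099, adjusted p = 2.81e-06). Ldha at −1.20 lay in the lower part of this list, whose tested members ran from −1.79 to 1.54. The 2 genes that rose, named after their values were seen, were the other enolase genes Eno2 (1.54 ± 0.16) and Eno3 (1.29 ± 0.19), from means of 406 ± 55.4 and 339 ± 85.4 in NaCl to libraries at 924 to 1421 and 641 to 977 with itaconate.

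Among genes around pyruvate and its use in mitochondria, which competes with lactate formation, 4 of 18 rose and 7 fell (median log2 difference −0.15). Pdk1, an inhibitory kinase of pyruvate dehydrogenase, went from 6155 ± 454 to 2789 ± 106 (−1.14 ± 0.085, adjusted p = 2.36e-06). The malic enzyme gene Me2 (−1.21 ± 0.098, adjusted p = 3.82e-06) and the pyruvate carboxylase gene Pcx (−1.21 ± 0.15, adjusted p = 6.14e-05) fell as well. The genes that rose were the dehydrogenase subunit gene Pdha1, the kinase gene Pdk2 and the phosphatase genes Pdp1 and Pdp2, named after their values were seen. The others that fell, named likewise, were Pdk3 (−0.58), Pdpr (−0.61), Gpt2 (−0.51) and Me1 (−3.59, from a mean of 32.2 in NaCl). The mitochondrial pyruvate carrier genes, named likewise, did not pass, with log2 differences of 0.00066 for Mpc1 and 0.17 for Mpc2.

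Lactate dehydrogenase regenerates NAD+ in the cytosol, as do the malate-aspartate and glycerol phosphate shuttles. Of 9 tested shuttle genes 1 rose and 2 fell (median log2 difference 0.01). The aspartate aminotransferase gene Got1 went from 7250.0 ± 1190.0 to 3372 ± 59.6 (−1.09 ± 0.11, adjusted p = 1.32e-05), and Slc25a11, the oxoglutarate carrier, fell by 0.70 on the log2 scale (SE 0.10, adjusted p = 1.94e-04). Gpd1l, a homologue of glycerol-3-phosphate dehydrogenase, rose from 361 ± 42.0 to 745 ± 72.3 (1.05 ± 0.14, adjusted p = 1.00e-04).

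Since lactate leaves with a proton, genes of proton and bicarbonate handling were counted: 4 of 14 rose and 2 fell (median log2 difference 0.27). Slc4a8, a sodium-driven bicarbonate exchanger, rose by 0.95 ± 0.15 (adjusted p = 3.24e-04). Slc4a11 rose by 1.03 ± 0.16 (adjusted p = 3.30e-04). The mitochondrial carbonic anhydrase gene Car5b rose from 24.8 ± 11.3 to 104 ± 14.8 (2.12 ± 0.38, adjusted p = 9.69e-04). The other gene that rose was Car2, a cytosolic carbonic anhydrase, and the genes that fell were Slc9a8 and Slc4a2, named after their values were seen.

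Of the 11 tested regulators of these genes, 1 rose and 5 fell (median log2 difference −0.14). Egln1 and Egln3 encode prolyl hydroxylases that mark HIF alpha subunits for degradation, and Egln3 is itself induced by HIF. Egln3 had 11826, 14887 and 15279 in NaCl and 2136, 2868 and 5198 with itaconate (−2.13 ± 0.23, adjusted p = 3.12e-05), and itaconate replicate 3 was highest within its group, as it was for Slc16a3. Egln1 fell by 1.63 on the log2 scale (SE 0.14, adjusted p = 6.54e-06). Myc, whose protein binds the E-box, changed by −0.55 ± 0.11 (adjusted p = 0.00211). Hif1a, named after its value was seen, went from 32223 ± 2496 to 20693 ± 4693 (−0.66 ± 0.13, adjusted p = 0.00234), again with its highest itaconate value, 25826, in replicate 3. In NaCl replicate 3, Egln3 and Slc16a3 were highest within their group, whereas Hif1a, at 29476, was lowest. Bsg in itaconate replicate 3 (5164) was below its value in replicate 2 (5415). Replicate 3 was also the highest itaconate library for Ldha, Ldhb, Slc2a3, Hk2, Eno1 and Myc, and the lowest for Slc16a1, Eno2 and Eno3. Whether these genes vary together was not tested. Arnt, the partner of HIF alpha subunits, was the gene that rose (0.32 ± 0.10, adjusted p = 0.0266), named after its value was seen. Vhl passed with overlapping groups (−0.38 ± 0.14, adjusted p = 0.0450), also named after its values were seen. Esrra and Max, of the same list, did not pass.

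**Figure D5:**
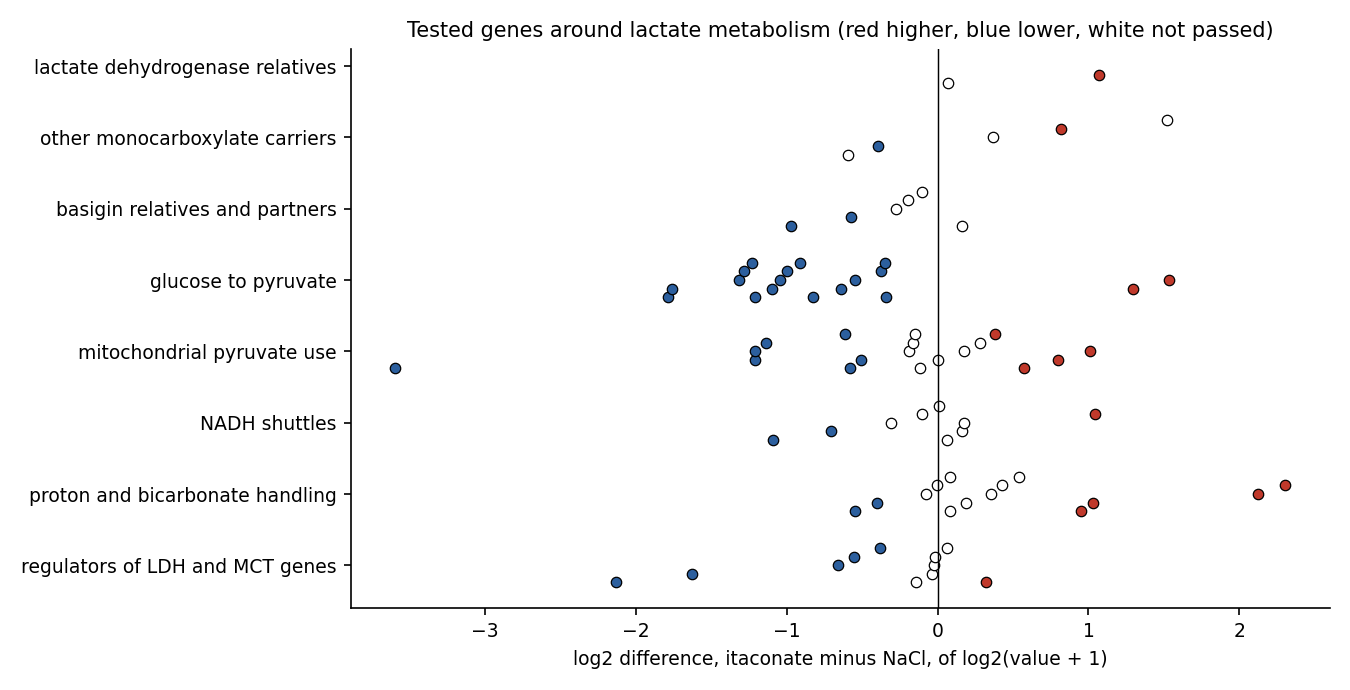
Log2 difference, itaconate minus NaCl (x axis), of the 83 tested genes of 8 lists around lactate metabolism (rows), 1 point per gene, red for higher and blue for lower at an adjusted p under 0.05 in limma and white for not passed. The list from glucose to pyruvate holds 16 blue and 2 red points, while the other lists are mixed or mostly white.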

How the data were processed

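RNA was sequenced from 6 libraries of stimulated splenic CD4+ T cells, grouped by their titles. The authors deposited a single table of estimated counts normalized per library, a signal with no values below 0. STAR 2.7.0f, RSEM 1.3.0 and the mm10 build are named per the submitters' processing notes. Their annotation, size-factor tool, strand setting and filters were not stated. In each library 100% of the values were hundredths of a fixed step (within 0.01), which gave the estimated reads, and 79.9% to 82.2% were whole reads (within 0.02), so no count model was used.

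Entries with a mean of at least 10 (13180) were fitted as log2(value + 1) in limma 3.58.1 (R 4.3.3) with an intensity trend, two-sided, and p-values were adjusted by Benjamini-Hochberg across these entries. For 107 repeated symbols, the name went to the entry of highest mean. The fit was tested on simulated data. The fold changes understate changes of low genes. Lengths, positions and 31-base sequences came from GENCODE release M21 (GRCm38).

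The 5 genes and the lists were chosen with earlier results of these data known. Named from each list were the 3 tested genes with the smallest p, and for each of the 5 genes the 3 nearest profiles, leaving out predicted genes and clone names. Across genes, which are no independent replicates, libraries of a group correlated at 0.973 to 0.979 (Pearson, log2 values).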

Additional observations from a re-analysis of the deposited data

How the results depend on the processing

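For the 5 genes and the 2 ratios, 84 values were taken under alternatives. These were pseudocounts of 0.1 and 10, 3 other scalings, the replicate block and each library left out. All 84 values kept their direction and moved by less than the pooled within-group SD. Part of this was fixed in advance. The replicate block cannot move a difference of means, and the median-ratio factor was 1.007 in every library. In the 2 ratios a factor per library cancels, but for the pseudocount. With each library left out, the log2 differences ran from −1.24 to −1.16 for Ldha, 0.41 to 0.54 for Ldhb, −0.30 to −0.15 for Slc16a1, −1.44 to −1.12 for Slc16a3 and −1.87 to −1.69 for Bsg. The log2 ratio differences ran from −1.71 to −1.60 for Ldha to Ldhb and from −1.27 to −0.82 for Slc16a3 to Slc16a1. Against 4741 genes called, 3483 to 5001 were called with a library left out, and 3651 to 5636 under the other alternatives. Of the listed genes 49 were called, against 41 to 51.

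The labels tie the replicate numbers to nothing. The same-numbered libraries' deviations correlated at 0.15, 0.038 and 0.13, and those of differently numbered libraries at −0.13 to 0.020. Same-numbered libraries were thus weakly the more alike, and whether they are pairs cannot be told from these values. The main fit did not treat them as pairs, and the block was an alternative. The replicate block called 5636 genes and 51 listed genes, against 4741 and 49 in the main fit. Because every replicate number occurs in both groups, the block cannot change a difference of means. Those of the 5 genes therefore stayed at −1.20, 0.47, −0.23, −1.25 and −1.76, and those of the ratios at −1.67 and −1.02. Of 366 values under alternatives of the 23 genes named by smallest p in their list, 6 crossed the threshold, all of Nptn or Slc16a6. Only Ldhd changed direction, from 0.071 to −0.11 without itaconate replicate 3 and −0.039 without NaCl replicate 2 (range with a library left out −0.11 to 0.25), without passing the test in any of these fits. Nptn also passed under upper-quartile scaling (adjusted p = 0.0499) and the replicate block (0.0409), and Slc16a6 missed the threshold without the intensity trend (0.0526). Genes named after their values were seen, such as Vhl, Arnt and Hif1a, were not compared across these alternatives. The 3 libraries per group limit the precision of all values given here.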
